A study of Rattus norvegicus with 9 samples.

Results

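Toll-like receptors, the NOD receptors and the parts of the NLRP3 inflammasome are the sensors through which cells recognise microbial molecules and molecules released by damaged cells. Described here are 10 of their genes in rat adipose tissue: the receptors Tlr2, Tlr3, Tlr4 and Tlr9, the adaptor Myd88, the cytosolic receptors Nod1 and Nod2, and the inflammasome genes Nlrp3, Pycard and Casp1. They were picked by gene symbol, by a rule that uses no measured value but was set with earlier results of these data known, and all 10 were among the 32883 genes listed for every library. None of the 10 passed the test, adjusted over all genes, in any comparison between healthy, diabetic and extract-treated diabetic rats.

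Toll-like receptors are membrane proteins that bind bacterial or viral molecules outside the cell or in endosomes. Most of them signal through Myd88 to the transcription factor NF-kB, which switches on cytokine genes. NOD1 and NOD2 bind fragments of bacterial cell walls in the cytosol and signal through the kinase RIPK2. NLRP3, once activated, gathers the adaptor ASC (the product of Pycard) and procaspase-1 into the inflammasome, in which caspase-1 cleaves the precursors of interleukin-1 beta and interleukin-18 and the pore protein gasdermin D. In adipose tissue these genes are known mainly from macrophages and also from adipocytes, and TLR4 and NLRP3 have been studied as links between excess fat and insulin resistance. Inflammasome activation and Toll-like receptor signalling are largely events of protein, which RNA levels do not show.

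RNA was sequenced from the tissue of male Wistar rats at day 31 in 3 groups with 3 libraries each. Healthy rats (HE) had a standard diet and injected buffer. Diabetic rats (DB) had a high fat diet, a single injection of streptozotocin (25 mg/kg), a toxin of the insulin-producing beta cells, and water by gavage. The third group (BB) was made diabetic the same way and took a black bean extract by gavage (260 mg/kg/day). The sources used here state no age for the rats, and the study's methods name the fat depot as retroperitoneal. The comparisons ask how diabetic rats differed from healthy ones (DB with HE), what the extract changed in diabetic rats (BB with DB) and how far treated rats were from healthy ones (BB with HE). They share groups, so they are not independent of each other. Diet, streptozotocin and diabetes differed together between HE and the other groups, and gavage is described only for DB and BB. The parts of these factors cannot be told apart.

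The values are reads per gene divided by a size factor for each library, and they are not corrected for gene length, so levels of different genes are not ranked. In 8 libraries, 2771967 to 3542749 reads were counted and 1 read stood for a value of 0.672 to 0.913. BB replicate 8 stood apart, with 12267084 reads counted, more than in any other library. There 1 read stood for 14.6, and 47.4% of all genes had no reads. Of its reads, 76.5% fell on 10 genes, against 10.2% to 19.2% in the others. This library is shown separately, and tests were made on the other 8 libraries (HE and DB n = 3, BB n = 2). Adipocyte markers were read in all 8, with Lep at 156 to 233, Adipoq at 58.4 to 71.2 and Pparg at 35.8 to 52.4. Fabp4, the fatty acid binding protein of fat cells, was the lowest of the 8 markers measured, at 8.10 to 14.6. The 1130 olfactory receptor genes, which adipose tissue is not known to use, had a median of 17.7 and reads in every one of the 8 libraries. The tissue was taken from the labels and the methods, and values near those of Fabp4 are no higher than those of genes not known to be used there. In bulk tissue, fewer cells of a type and less RNA per cell cannot be told apart.

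Tlr2 and Tlr4 are the receptors of the cell surface, for bacterial lipoproteins and for lipopolysaccharide. Tlr2 had values of 55.1, 53.3 and 63.2 in HE, of 72.1, 50.2 and 63.5 in DB, and of 54.5 and 45.1 in BB. The groups overlapped in all 3 comparisons, and the highest and the lowest DB library lay outside the whole range of HE. Tlr4 had values of 35.6, 35.5 and 42.1 in HE, of 27.4, 42.1 and 38.1 in DB, and of 43.6 and 44.3 in BB. For Tlr4 the BB libraries lay above every HE and DB library, by a margin smaller than the spread within DB. The fitted fold of BB over DB was 0.812 for Tlr2 (95% interval 0.627 to 1.05) and 1.24 for Tlr4 (0.919 to 1.67), and neither differed from 1 (limma, adjusted p = 0.998 for each). The estimates had opposite signs, and each interval held no change.

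Tlr3 and Tlr9 recognise nucleic acids in endosomes, viral RNA for Tlr3 and DNA rich in unmethylated CpG for Tlr9. Tlr3 had values of 68.5, 77.8 and 71.0 in HE, of 76.7, 85.0 and 66.5 in DB, and of 84.9 and 74.1 in BB. It was among the steadiest of the 10 genes, with 1.28 between its highest and its lowest library. Tlr9 had values of 22.2, 25.4 and 36.7 in HE, of 29.2, 34.0 and 24.7 in DB, and of 31.9 and 37.8 in BB. Tlr9 varied more, its highest HE library being above all DB libraries and its lowest below them. The fold of DB over HE was 1.05 for Tlr3 (0.858 to 1.28) and 1.06 for Tlr9 (0.775 to 1.44), with adjusted p = 0.944 and 0.957 in limma. Tlr9 overlaps the ribosomal protein gene Rpl29 in the GRCr8 annotation of RefSeq, and since the counting is not stated to use strand, reads of the overlapping stretch cannot be told apart.

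Myd88, the adaptor shared by most Toll-like receptors and by the interleukin-1 receptor, had values of 81.9, 72.7 and 84.3 in HE, of 64.8, 84.2 and 74.7 in DB, and of 74.0 and 76.5 in BB. Both BB libraries lay inside the range of both other groups. Its fold was 0.934 for DB over HE (0.767 to 1.14) and 1.01 for BB over DB (0.813 to 1.26), with adjusted p = 0.892 and 0.999 in limma. Myd88 overlaps Acaa1a, a gene of peroxisomal fatty acid oxidation, in the same annotation.

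Nod1 and Nod2 code for the cytosolic receptors of peptidoglycan fragments. Nod1 had values of 61.8, 63.4 and 73.4 in HE, of 74.0, 74.5 and 71.0 in DB, and of 81.0 and 76.5 in BB. The BB libraries lay above all others, and DB overlapped HE through HE replicate 4 alone. Nod1 had the narrowest spread within groups, and its fold of BB over HE was 1.19 (0.962 to 1.47, adjusted p = 0.808 in limma), the smallest p of any of the 10 genes in that comparison. Nod2 had values of 105, 112 and 136 in HE, of 128, 124 and 138 in DB, and of 142 and 123 in BB. All groups overlapped for Nod2, and its fold was 1.11 for DB over HE (0.926 to 1.33) and 1.02 for BB over DB (0.831 to 1.25).

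Nlrp3 codes for the sensor of the inflammasome, and it had the most reads of the 10 genes, up to 295 in a library. Its values were 163, 199 and 230 in HE, 193, 190 and 212 in DB, and 163 and 172 in BB. DB lay within the HE range, with a fold of 1.01 (0.846 to 1.21, adjusted p = 0.986 in limma). The BB libraries lay below all DB libraries, yet HE replicate 2 lay between them. The fold of BB over DB was 0.846 (0.691 to 1.04), a log2 difference of -0.24 with a standard error of 0.14 and an adjusted p of 0.998 in limma.

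Pycard, which codes for the adaptor ASC, had values of 17.5, 38.0 and 33.6 in HE, of 20.1, 23.5 and 26.2 in DB, and of 16.4 and 26.6 in BB. It was the least steady gene, since HE replicate 2 was below every DB library and the other HE libraries were above them all. Its fold of DB over HE was 0.826 (0.560 to 1.22) and that of BB over HE 0.749 (0.485 to 1.16), the only interval among the 10 genes that reached past a 2-fold difference. The log2 difference between BB and HE (-0.42) ran from -0.75 without HE replicate 2 (limma, adjusted p = 0.552) or without BB replicate 4 (adjusted p = 0.862) to -0.083 without BB replicate 1 (adjusted p = 0.986).

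Casp1, the gene of caspase-1, had values of 19.5, 21.1 and 21.9 in HE, of 30.1, 25.1 and 25.4 in DB, and of 28.8 and 25.8 in BB. The HE libraries lay below every DB and BB library, and DB and BB overlapped. The fold was 1.27 for DB over HE (0.950 to 1.71) and 1.30 for BB over HE (0.933 to 1.80), and neither passed the test (limma, adjusted p = 0.641 and 0.818). These values rest on 25 to 37 reads per library, for which counting error alone gives a coefficient of variation of 18.0%. The mean values of Casp1 and Pycard were below the upper quartile of the olfactory receptor genes (27.1), and those of the other 8 genes were above it. The 95th percentile of the olfactory receptor genes was 71.7, and the group means of Tlr2, Tlr4 and Tlr9 were all below it. Being above the quartile does not by itself show that a gene is used in the tissue.

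**Figure D1:**
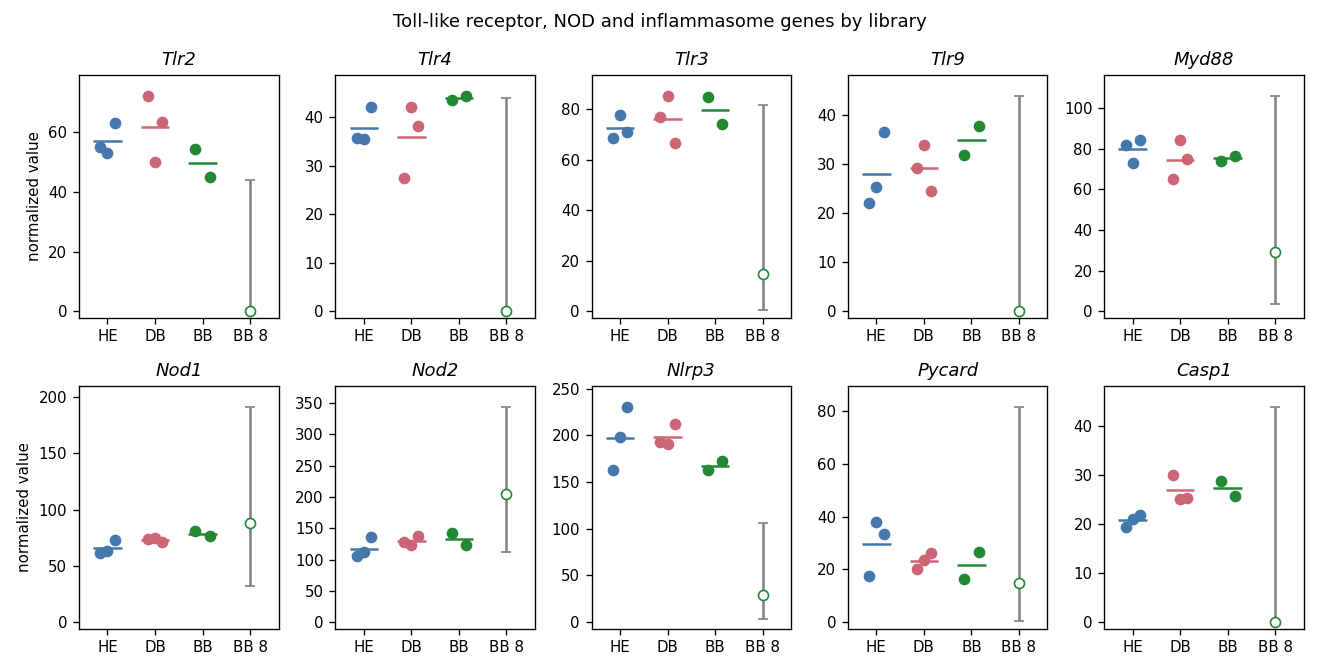
Normalized value (reads divided by the size factor, linear axis) of each gene in each library. Filled points are the HE, DB and BB libraries with a line at the group mean. The open point is BB replicate 8, with its 95% Poisson interval of counting error, or the value of 3 reads (43.9) where it had no reads. Casp1 is the only gene whose DB points all lie above its HE points.

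Seen together, the 10 genes stayed close to no difference in each comparison. Between DB and HE, 0 of the 10 passed the test (limma, adjusted p under 0.05), where 0.677% of the 32371 genes tested did. Between BB and DB, 0 of the 10 passed and 0% of all genes did, while both edgeR and DESeq2 called 2 genes. In limma, 1603 of all genes (4.95%) had an unadjusted p under 0.05, near the share that this cut gives without any difference. Between BB and HE, 0 of the 10 passed, against 0.192% of all genes. No gene of the 10 had an unadjusted p under 0.05 in any comparison, the smallest being 0.100 for Casp1 between DB and HE, 0.0993 for Nlrp3 between BB and DB, and 0.104 for Nod1 between BB and HE. The count of genes whose libraries did not overlap was 1 of 10 between DB and HE (Casp1), where 14.1% of all genes did not overlap. It was 3 of 10 between BB and DB (Nlrp3, Tlr4 and Nod1; all genes 19.6%) and 3 of 10 between BB and HE (Casp1, Tlr4 and Nod1; all genes 22.1%). With groups this small such a separation is common, and these shares are near those of all genes.

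The intervals say how large a difference could have been missed. They lay wholly within a 2-fold difference for all 10 genes between DB and HE and between BB and DB, and for 9 of 10 between BB and HE. Within a 1.5-fold difference lay 8, 6 and 6 of the 10 intervals. The median log2 difference of the 10 genes was 0.07, 0.02 and 0.15 in the 3 comparisons, beside 0.005, -0.003 and -0.001 over all genes tested. Values above 0 were found for 7, 7 and 6 of the 10 genes, against 50.9%, 49.4% and 49.9% of all genes.

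**Figure D2:**
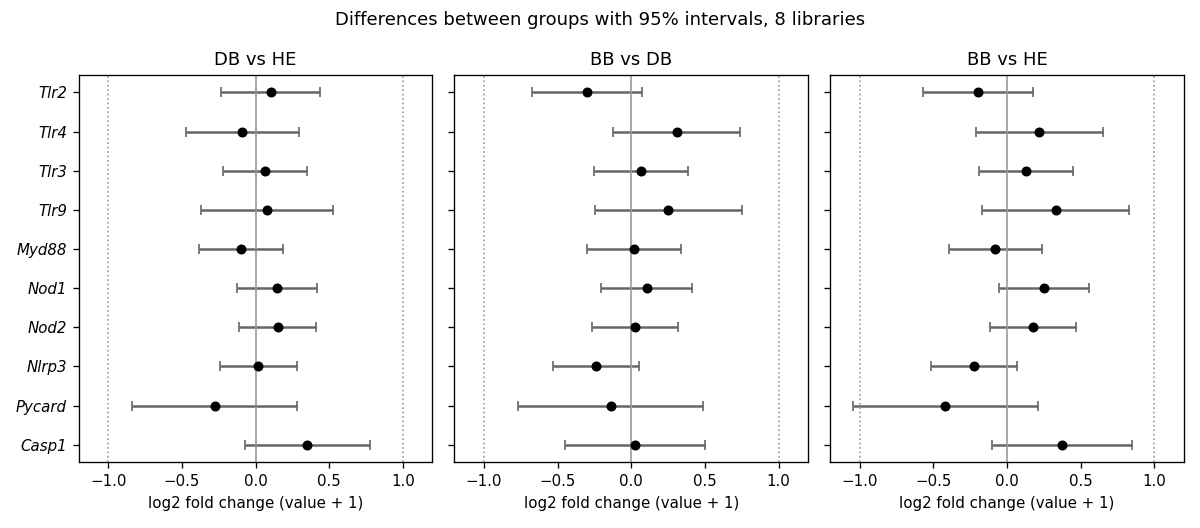
Log2 fold change of value + 1 (horizontal axis) of each gene in the 3 comparisons, first group over second, from the limma fit of 8 libraries. Points are the estimates, bars their 95% intervals and dotted lines a 2-fold difference. Every interval crosses 0, and only that of Pycard between BB and HE crosses a dotted line.

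How much of the spread was counting error differed from gene to gene. The coefficient of variation within groups was at or under that of counting error alone for 4 genes: Casp1 (8.37% against 18.0%), Nod1 (6.45% against 10.5%), Tlr3 (9.76% against 10.3%) and Myd88 (9.60% against 10.2%). It was above for the other 6, most for Nlrp3 (11.6% against 6.49%) and Pycard (28.8% against 18.4%) and barely for Tlr4 (14.9% against 14.6%). Whether these gaps exceed what counting error gives with so few libraries was not tested. HE replicate 4 had the highest HE value for 8 of the 10 genes and HE replicate 2 the lowest for 7. Over all genes tested, these libraries were the highest and the lowest of HE for 31.4% and 34.4%.

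**Figure D3:**
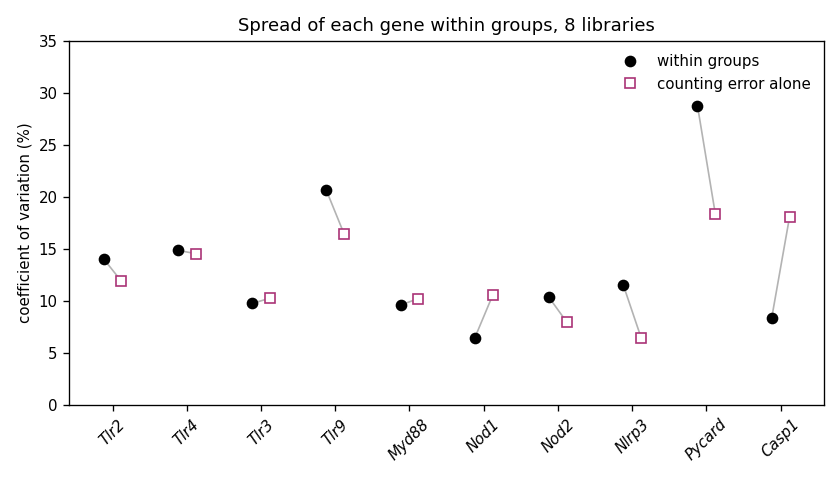
Coefficient of variation in percent (vertical axis) of each gene. Filled points are the spread within the groups over 8 libraries and open squares that of counting error alone, joined by a line. Pycard and Nlrp3 lie furthest above their squares, Casp1 furthest below.

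Around these 10 genes, 110 further gene symbols of the same pathways were looked up in 6 lists, 3 of them other names of genes already listed, and 100 were in the files and tested. Of these 100, 0 passed the test in any comparison. An unadjusted p under 0.05 was found for 12 of them between DB and HE (8 higher, 4 lower in DB), 3 between BB and DB and 4 between BB and HE, where 9.43%, 4.95% and 6.86% of all genes tested had one. The members of the lists are named below by the smallest p of each list, together with genes fixed by name, and not as genes that changed.

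Among the other Toll-like receptors and co-receptors, 9 of 14 were above 0 between DB and HE, with a median log2 difference of 0.09. Unc93b1, which carries the nucleic acid receptors to endosomes, came nearest to the threshold of all 100 genes. Its values were 101, 118 and 96.0 in HE, 132, 148 and 158 in DB, and 114 and 121 in BB. DB libraries were above the others of the 8, with log2 differences of 0.48 ± 0.12 (SE) for DB over HE (limma, adjusted p = 0.0853) and -0.31 ± 0.14 for BB over DB (adjusted p = 0.992). Tlr6, the partner of Tlr2, had a log2 difference of 0.36 ± 0.13 between DB and HE (adjusted p = 0.330). Cd14, which hands lipopolysaccharide to Tlr4, had values of 14.1 to 37.5 in HE, 19.4 to 33.8 in DB and 25.7 and 31.4 in BB, which overlapped throughout. Ly96, the partner of Tlr4 in binding lipopolysaccharide, and Ticam1, the adaptor of Tlr3, were not analysed here.

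Of the adaptors and kinases below the receptors, 11 of 22 were above 0 between DB and HE, 10 between BB and DB and 7 between BB and HE, with median log2 differences of -0.003, -0.02 and -0.05. Tirap, which brings Myd88 to Tlr2 and Tlr4, had values of 11.4, 12.7 and 10.9 in HE, 20.1, 17.8 and 13.5 in DB, and 11.7 and 10.5 in BB. The DB libraries were above the others of the 8, in log2 by 0.50 ± 0.27 over HE (limma, adjusted p = 0.612), and each value stands for few reads. Tab2, a partner of the kinase TAK1, had a log2 difference of -0.19 ± 0.12 between DB and HE (adjusted p = 0.655).

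Among the partners and products of the inflammasome, 14 of 23 were above 0 between DB and HE and 16 of 23 between BB and DB. Il1b, the precursor that caspase-1 cleaves, had values of 53.7, 57.5 and 35.1 in HE, 53.9, 40.5 and 38.1 in DB, and 47.5 and 49.1 in BB. Il18 ranged from 26.2 to 32.8 in HE, from 24.7 to 41.1 in DB and was 31.9 and 40.3 in BB. Gsdmd, the gene of gasdermin D, ranged from 32.0 to 33.8 in HE, from 25.4 to 44.5 in DB and was 41.3 and 29.0 in BB. All of these substrates of caspase-1 overlapped between the groups. Gsdme, a gasdermin cleaved by caspase-3, had values of 378, 415 and 418 in HE, of 316, 326 and 314 in DB, and of 306 and 334 in BB. Its log2 difference was -0.34 ± 0.11 between DB and HE (limma, adjusted p = 0.201) and -0.33 ± 0.12 between BB and HE (adjusted p = 0.536), so it passed neither test although HE lay above DB and BB. Il1rn, which codes for the antagonist of the interleukin-1 receptor, had a log2 difference of 0.40 ± 0.16 between BB and HE (adjusted p = 0.655).

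In NOD signalling and the other NLR genes, 6 of 19 were above 0 between DB and HE, with a median log2 difference of -0.05. Ripk2, the kinase on which both NOD receptors depend, had values of 242, 194 and 189 in HE, 135, 170 and 160 in DB, and 156 and 215 in BB. The DB libraries lay below all HE libraries, with a log2 difference of -0.42 ± 0.14 (limma, adjusted p = 0.236), while Nod1 and Nod2 had estimates above 0 in the same comparison. Nlrx1, a mitochondrial member of the family, had values of 179, 184 and 183 in HE, 135, 151 and 151 in DB, and 157 and 175 in BB. Its groups did not overlap in any comparison, BB lying between DB and HE, and its log2 difference of DB over HE was -0.32 ± 0.11 (adjusted p = 0.268).

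The cytosolic nucleic acid sensors and the cytokine outputs gave no calls either. Of the sensors, 2 of 7 were above 0 between DB and HE, and Zbp1, a sensor of Z-form nucleic acids, had a log2 difference of 0.42 ± 0.17 between BB and HE (limma, adjusted p = 0.631). Ifih1, the sensor MDA5 of viral RNA, had one of -0.26 ± 0.13 (adjusted p = 0.768). Of the outputs, 8 of 15 were above 0 between DB and HE, among them Icam1, an adhesion molecule for leukocytes (0.35 ± 0.15, adjusted p = 0.466), and the chemokine Ccl4 (0.55 ± 0.24, adjusted p = 0.475). Ccl4 had values of 14.1, 15.2 and 11.7 in HE, 19.2, 21.9 and 20.2 in DB, and 17.9 and 16.1 in BB. The groups were apart in each comparison, at values no higher than those of many olfactory receptor genes.

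**Figure D4:**
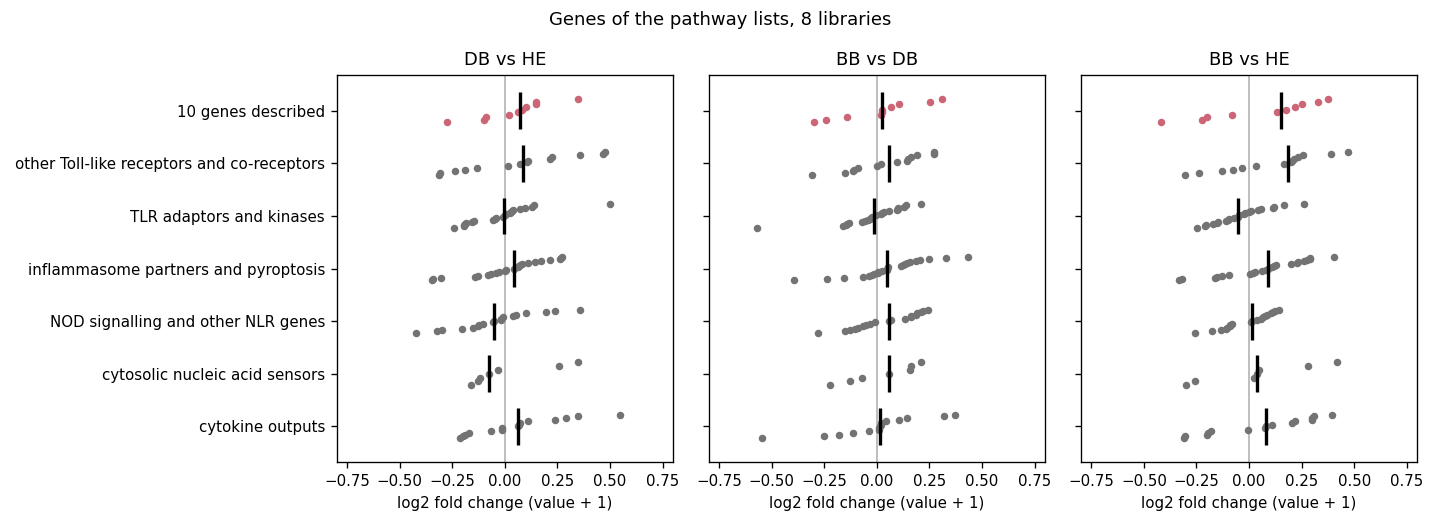
Log2 fold change of value + 1 (horizontal axis) of the 10 genes described and of the tested genes of the 6 pathway lists in the 3 comparisons. Each point is a gene and each black bar the median of its row. The medians lie near 0, and no gene passed the test.

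Marker genes of cell types that the tissue could hold were set beside these values. The summed value of the 9 macrophage markers measured was 2156 to 2310 in HE, 1807 to 2220 in DB and 1797 to 1844 in BB, with none at 0 in the 8 libraries and 0 passing the test. That of 8 neutrophil markers was 642 to 686 in HE, 553 to 619 in DB and 556 to 570 in BB, and 1 of them, S100a9, fell between HE and DB by 0.69 on the log2 scale (limma, adjusted p = 0.00563). S100a9 codes for a part of calprotectin, a ligand of TLR4. S100a8, of the same list, overlapped between the groups, with 8.58 to 10.1 in HE, 5.23 to 10.5 in DB and 12.5 and 4.83 in BB. These values stand for only 6 to 16 reads. Between DB and HE, 6 of the 8 neutrophil markers were below 0 and 2 above. The 8 hepatocyte markers summed to 1555 to 1966 in HE, 1215 to 1228 in DB and 1542 to 1619 in BB. Of these, Alb (albumin) and Tf (transferrin) fell between HE and DB by 1.12 and 0.49 (limma, adjusted p = 0.000145 and 0.0363). In that comparison 7 of the 8 were below 0, while Cyp2e1 went the other way. It had values of 41.4 to 57.5 in HE, 59.9 to 73.0 in DB and 91.1 and 74.1 in BB. Sums were 310 to 332 in HE, 291 to 353 in DB and 295 to 320 in BB for 7 lymphocyte markers, 613 to 713, 591 to 709 and 632 to 637 for 8 adipocyte markers, and 1451 to 1590, 1421 to 1477 and 1416 to 1600 for 5 endothelial markers, with none at 0 and 0 passing the test. Macrophage and neutrophil sums were thus lower in BB than in HE, where Nlrp3, Pycard, Tlr2 and Myd88 had estimates below 0 and the other 6 genes above it. Neutrophil sums were lower in DB than in HE too, where 7 of the 10 genes had estimates above 0. Such sums weigh abundant markers most. The part of these cell types in the values of the 10 genes was not tested.

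In BB replicate 8 the 10 genes had few reads. Casp1, Tlr2, Tlr4 and Tlr9 had 0 reads, which allows a value of up to 43.9 (that of 3 reads). Pycard and Tlr3 had 1 read (14.6), and Nlrp3 and Myd88 had 2 reads (29.3). Nod1 had 6 reads (87.8) and Nod2 had 14 (205). The interval of counting error for Nlrp3 (3.54 to 106) lay below all 8 other libraries, and those of the genes with reads otherwise included values seen elsewhere. With this library in the fit, the median log2 difference of the 10 genes was -0.89 between BB and DB and -0.85 between BB and HE, where that of all genes was -0.51 in both. None of the 10 passed the test then (smallest adjusted p = 0.526 in limma), and 5 of the 10 estimates turned from above to below 0 between BB and DB.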

How the data were processed

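The deposited values are a normalized signal, made by the authors by dividing each gene's reads by 1 factor per library. Whole reads were recovered in 100% of values (within 0.1 reads), and 0 columns of values were left out. Aligner, counter and annotation: not given in the sources used here. Of builds, the submitters' processing notes list GRCm38 and mm10, which are of mouse. The columns end in a letter that differs from the sample titles and is not explained. The study's methods name a t-test with Benjamini-Hochberg adjustment.

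Genes that reached a group mean of 1 were tested on log2(value + 1) with limma 3.58.1 (trend, 5 residual degrees of freedom) in R 4.3.3, with Benjamini-Hochberg adjustment over 32371 genes and a threshold of 0.05. Fold changes are on that scale and understate those of low genes. Intervals are at 95%. Alternatives used edgeR 4.0.16, DESeq2 1.42.0, limma-voom, other scalings, filters and pseudocounts. Data were also simulated with a fixed dispersion of 0.02 and with changes only in genes above a read minimum. There limma recovered 75 of 100 genes changed 2-fold and 100 of 100 changed 4-fold between DB and HE (14 false calls among 32306 genes). Between BB and DB it recovered 62 and 100 (10 false calls among 32306 genes). The real spread differs from gene to gene, so these rates need not hold for each of the 10 genes.

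The 10 genes and the lists were chosen with earlier results of these data known. From each pathway list the 2 genes with the smallest unadjusted p are named, and any list gene past the threshold. Il1b, Il18, Gsdmd, Cd14, Ly96, Ticam1 and Ripk2 and a few abundant markers are named too. S100a9, Alb and Tf were named for passing, and further markers for comparison with those named. All 10 symbols matched a protein-coding gene of GRCr8 in RefSeq, used for names and overlaps only. In that annotation Nlrp3, Casp1 and Tlr3 each overlap a gene with no symbol of its own. Counts of replicates differed by more than sampling noise. The sources used here do not say that each library is a separate rat, so p-values measure only the spread between libraries, which may be technical. Intervals from reads cover counting error only.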

Additional observations from a re-analysis of the deposited data

Results flagged for a closer look

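BB replicate 8, which was left out of the tests, had values above every other library, beyond counting error, for 16 of 110 genes among the 10 described and those of the pathway lists, none of them among the 10. The share of all genes above every other library was not counted, so this count cannot be read as particular to these pathways. The highest were P2rx7 (66598), the ATP-gated channel upstream of NLRP3, Nlrc5 (11649), a regulator of MHC class I genes, and Unc93b1 (11575). Of the receptors, Tlr6 was at 1346, Tlr7 at 205 and Tlr12 at 337. Of the signalling genes, Traf3 was at 659, Traf6 at 2751, Tab1 at 219.5, Ikbke at 249, Casp8 at 468, Il1rap at 263 and Card6 at 307. Ifih1 was at 556, Cxcl2 at 893 and Nfkbia at 102. These values depend on the size factor of this library, in which 1 read stood for 14.6. In reads, P2rx7 had 4551 there against 172 to 305 in the other 8 libraries, and Nlrc5 had 796 against 283 to 347. Casp8, in contrast, had 32 reads against 85 to 118, and Nfkbia had 7 against 34 to 52. In the same library 32 of the 110 genes had no reads, where 47.4% of all genes had none. By the upper bound of their 95% Poisson interval, 13 of the 110 were below every other library, a share not counted over all genes. The reason was not tested.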

How the results depend on the processing

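None of the 10 genes passed the test under any of 20 alternatives (lowest adjusted p 0.456, for Casp1 between DB and HE with a linear model gene by gene), and 573 of 600 log2 differences kept their direction. With all 9 libraries, those between BB and DB turned for Casp1 (-1.58), Tlr3 (-0.72), Tlr4 (-1.52), Tlr9 (-1.47) and Myd88 (-0.42), and those between BB and HE for Casp1 (-1.23), Tlr3 (-0.66), Tlr4 (-1.61) and Tlr9 (-1.39). Scaling by total reads gave -0.035 for Nlrp3 between DB and HE.

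Leaving out 1 of the 8 libraries gave, between DB and HE, -0.11 to 0.14 for Nlrp3, -0.069 to 0.28 for Tlr9, -0.014 to 0.24 for Tlr2, -0.21 to 0.088 for Tlr4 and -0.018 to 0.16 for Tlr3. Between BB and DB it gave -0.076 to 0.11 for Myd88, -0.054 to 0.11 for Casp1, -0.075 to 0.13 for Nod2, -0.031 to 0.16 for Tlr3 and -0.47 to 0.19 for Pycard.

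The count of all genes that passed between DB and HE (219) was 0 with all 9 libraries, 0 gene by gene, 333 with total reads, and 59 (without HE replicate 4) to 420 (without HE replicate 3) with 1 library left out. Between BB and DB (0) it was 5 with only these groups fitted, 1 with a pseudocount of 5, 2 with total reads, 1 with TMM, 2 with edgeR, 2 with DESeq2, and 0 to 19 (without BB replicate 1, which leaves BB with 1 library that is assumed to vary like the other groups). Between BB and HE (62) it was 0 with all 9 libraries, 0 gene by gene, and 26 (without HE replicate 4) to 76. The cause was not tested. No paired analysis was made, because the study assigned rats to the groups at random and describes no pairs between them. With 21 to 295 reads per gene and library, the intervals of the 10 genes had a median half-width of 0.31 (DB and HE), 0.35 (BB and DB) and 0.35 (BB and HE) on the log2 scale. These intervals are not adjusted over all genes, so larger differences could be missed by the test too. Unc93b1, at 0.48 between DB and HE, did not pass.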
